A study of Bos taurus with 6 samples.

Results

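PNMT, CHGA and SLC18A2 are genes of the chromaffin cell, the catecholamine-secreting cell of the adrenal medulla. They were followed on a bovine cDNA microarray, a glass slide spotted with complementary DNAs and read in 2 colours. Members were the features whose only gene symbol in the platform annotation was PNMT, CHGA or SLC18A2. That gave 3 features, 1 per gene, of 19200 on the array, of which 12630 carried 1 gene symbol. The genes were picked because of values already seen on these arrays, such as the value of PNMT on adrenal array 1, so their values are a description, and the test across all features is given below as background, not as support for them.

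The series was the initial test of the array. Total RNA of adrenal tissue was hybridised against adrenal tissue, and RNA of lymph tissue against lymph tissue, with 3 arrays listed per tissue and no treatment in either group. The labels do not say from which animals, of what age, breed or sex, the RNA came, or which lymph tissue was taken, and they do not say whether the arrays of a tissue were separate animals. Any spread or p-value here therefore concerns these arrays and may be technical. The columns of adrenal 2 and lymph 3 held the same values in every row and were counted once, as the shared array, which belongs to no tissue group. Adrenal was thus represented by arrays 1 and 3 and lymph by arrays 1 and 2, with 5 distinct arrays in all.

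Each value is a log ratio of the 2 channels of an array, with the array's median set to 0. The labels give neither the base of the logarithm nor the dye of the numerator, so values are in deposited log units, and above or below 0 does not say which channel was brighter. Because both channels held the same tissue, a gene at 0 may be abundant or absent in it. A log ratio of this kind holds no expression level, and the presence of medulla in the adrenal RNA could not be checked from marker genes. Over the 5 arrays 19023 to 19198 features had a value, and the SD over all features ran from 0.0926 on the shared array to 0.194 on lymph 1.

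Chromaffin cells make catecholamines in a chain of enzymes. Tyrosine hydroxylase and aromatic amino acid decarboxylase make dopamine in the cytosol, dopamine beta-hydroxylase turns it into noradrenaline inside the granules, and PNMT methylates noradrenaline to adrenaline. SLC18A2 codes for a vesicular monoamine transporter that loads amines into the granules, and CHGA codes for chromogranin A, an acidic protein of the granule matrix that is also cut into peptides. PNMT is known to be induced by the glucocorticoids of the surrounding cortex.

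PNMT, the last enzyme of adrenaline synthesis, had by far its largest value on 1 adrenal array. It stood at 1.50 on adrenal 1 and had an empty cell on adrenal 3, while lymph 1 gave -0.176, lymph 2 gave -0.220 and the shared array 0.00422. Adrenal 1 was high, the other 3 values lay near or below the middle of their arrays, and the adrenal value did not overlap the lymph values. Adrenal 1 lay above lymph 1 and lymph 2 for 32.3% of the 19013 features with these 3 values. With only 1 adrenal value there was no spread within adrenal, and the lymph mean was -0.198 ± 0.0313 (SD, n = 2). Lymph minus adrenal was -1.70, a difference that rests on adrenal 1 alone.

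On adrenal 1 the PNMT feature ranked 2 of 19166 from the top and was the highest feature with a named gene. Its value was 10.2 times the SD of that array. CDC42BPB, which codes for a kinase that acts downstream of CDC42, came next among named features at 1.32, and PATZ1, a zinc finger transcription factor gene, followed at 0.836. More than 1 log unit above 0 was reached there by 4 features, or 0.0209% of those with a value. If the deposited values were log2 ratios, the value on adrenal 1 would be a 2.83-fold ratio between 2 channels of adrenal RNA, and it would be 4.48-fold for natural logarithms and 31.5-fold for log10.

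On the other arrays PNMT was an ordinary feature. On lymph 1, 28.8% of features lay farther from 0, and on lymph 2 14.4% did. On the shared array PNMT ranked 18235 of 19194 by distance from 0. The lymph arrays differed by 0.0442 for PNMT, where 83.0% of features had a wider gap. The mean of the 4 values was 0.277 ± 0.820 (SD, n = 4), and without adrenal 1 it was -0.131 ± 0.119 (n = 3).

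**Figure D1:**
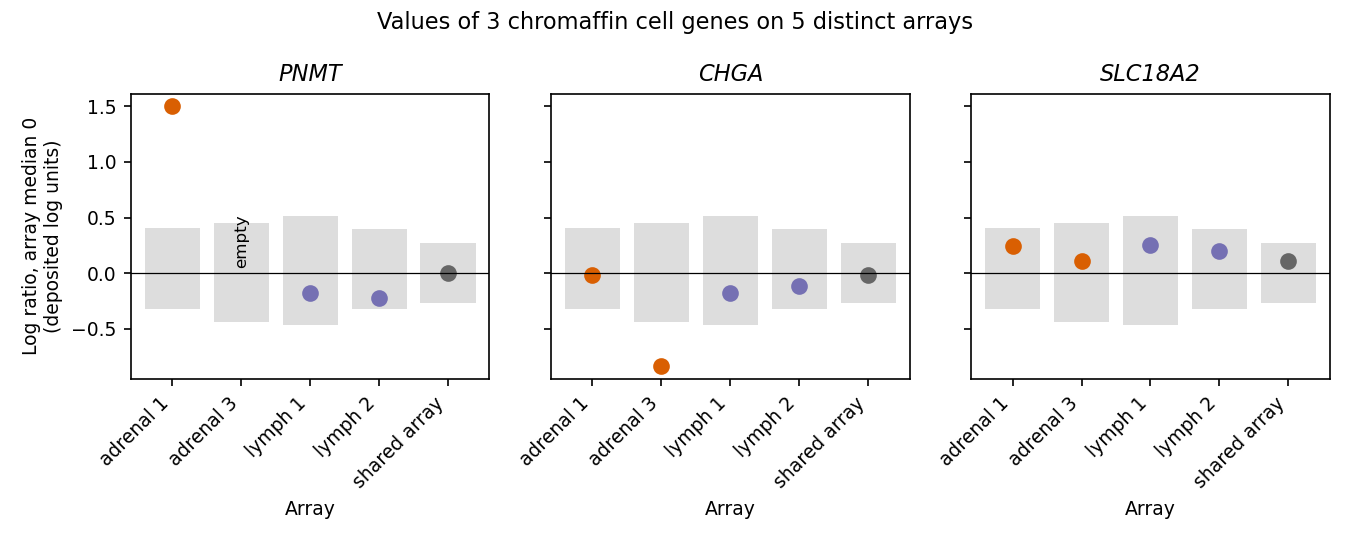
Log ratio (deposited log units, array median 0) of PNMT, CHGA and SLC18A2 on each of the 5 distinct arrays, 1 point per array, orange for adrenal, violet for lymph and grey for the shared array. Grey bars span the 1st to 99th percentile of all features on that array, and PNMT at 1.50 on adrenal 1 and CHGA at -0.833 on adrenal 3 are the points outside them.

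The empty cell of PNMT on adrenal 3 was 1 of 85 on that array. Adrenal 1 had 34 empty cells, lymph 1 had 177, lymph 2 had 2 and the shared array 6, and 18936 of 19200 features had none. For 72 features, PNMT among them, adrenal 3 was the only empty cell. What left a cell empty is not stated in the sources used here.

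Features that were empty on adrenal 3 were not in general far from 0 on adrenal 1. All 85 had a value on adrenal 1, and their median distance from 0 was 0.0749, against 0.0829 for the features that had a value on adrenal 3. More than 0.5 log units from 0 were 2 of the 85 (2.35%), against 0.556% of the others. Of these 2, PNMT was chosen for that value, so the difference in shares is not read as a result. The other was SNX5, which codes for a sorting nexin of endosomes and stood at -0.510 on adrenal 1 and at -1.13 on lymph 1. The next were UNC45A, a myosin chaperone gene, at -0.493, and TIMP2, a metalloproteinase inhibitor gene, at 0.356.

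**Figure D2:**
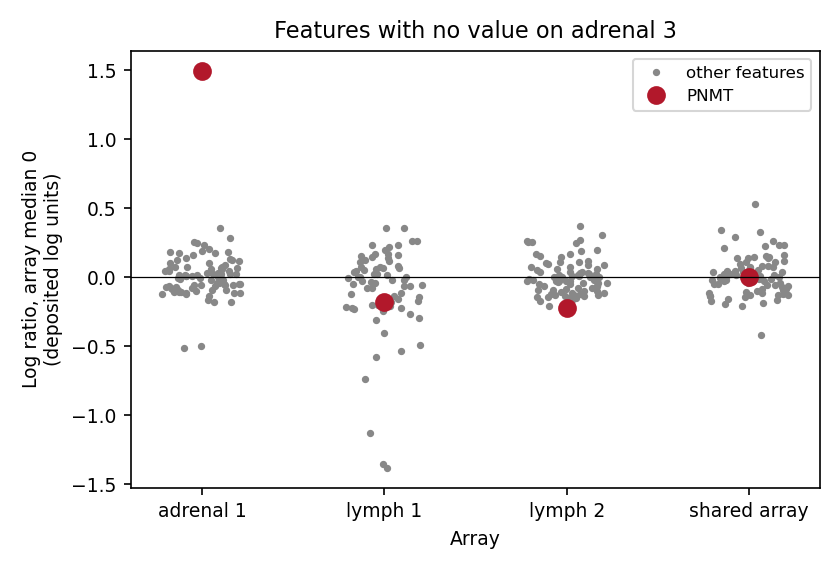
The 85 features with no value on adrenal 3, plotted as log ratios (deposited log units, array median 0) on the other 4 arrays, 1 point per feature with random sideways spread. PNMT, the large red point, stands at 1.50 on adrenal 1, where the highest of the other features, TIMP2, stands at 0.356.

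CHGA, the chromogranin A gene, also had its largest value on a single adrenal array, but on the other one and on the other side of 0. Its adrenal values were -0.0130 (array 1) and -0.833 (array 3), its lymph values -0.177 (array 1) and -0.116 (array 2), and the shared array gave -0.0142. All 5 values were below 0, 2 of them within 0.05 log units of it, and the lymph values lay between the adrenal values, so the tissues overlapped. The adrenal mean was -0.423 ± 0.580 and the lymph mean -0.147 ± 0.0427 (SD, n = 2 each). The difference of 0.277, lymph minus adrenal, was smaller than the adrenal SD, and without adrenal 3 it was -0.134, on the other side of 0.

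On adrenal 3 the CHGA feature ranked 20 of 19115 from the bottom, at -4.61 times that array's SD. More than 0.5 log units below 0 were 99 features there, or 0.518%. Directly above CHGA among named features was ACVR1, a receptor of the activin and bone morphogenetic protein family, at -0.791, and directly below was PPP2R3C, a regulatory subunit of protein phosphatase, at -0.879. On the log2 reading the value would be a 1.78-fold ratio, and on the natural logarithm and log10 readings a 2.30-fold and a 6.82-fold ratio.

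Being on 1 side of 0 throughout was not rare, since 4.69% of the 18936 features with 5 values were below 0 on all 5 arrays. The spread of CHGA was wide, but it rested on the value on adrenal 3, for which the gene was chosen. Its place among all features is therefore a description only. Its 5 values had a mean of -0.231 ± 0.344 (SD, n = 5), an SD above that of 98.8% of these features, against a median SD of 0.122. Without adrenal 3 the mean was -0.0801 ± 0.0807 (n = 4).

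**Figure D3:**
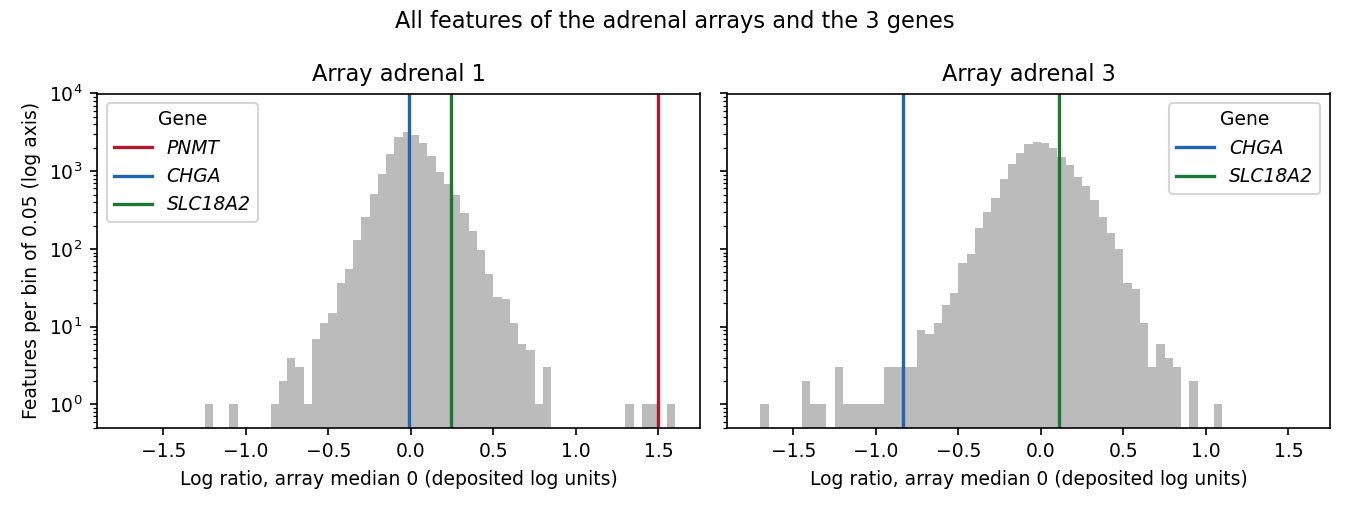
Histograms of the log ratios of all features on adrenal 1 (left) and adrenal 3 (right), in bins of 0.05 deposited log units with the count on a log axis, and vertical lines at the 3 genes. PNMT lies at 1.50 in the upper tail of adrenal 1, CHGA at -0.833 in the lower tail of adrenal 3, and SLC18A2 within the bulk of both.

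The gap between the adrenal arrays separated CHGA from SLC18A2. CHGA was chosen for its value on adrenal 3, so its wide adrenal gap was part of that choice. CHGA differed by 0.820 between adrenal 1 and adrenal 3, and 0.273% of 19081 features had a wider gap. Between lymph 1 and lymph 2 it differed by 0.0604, where 76.7% of features had a wider one. The median gap over all features was 0.125 for the adrenal arrays and 0.141 for the lymph arrays. SLC18A2 differed by 0.133 between the adrenal arrays, and 47.8% of features had a wider gap. Between the lymph arrays it differed by 0.0535, where 79.4% had a wider one. For PNMT no adrenal gap could be formed.

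**Figure D4:**
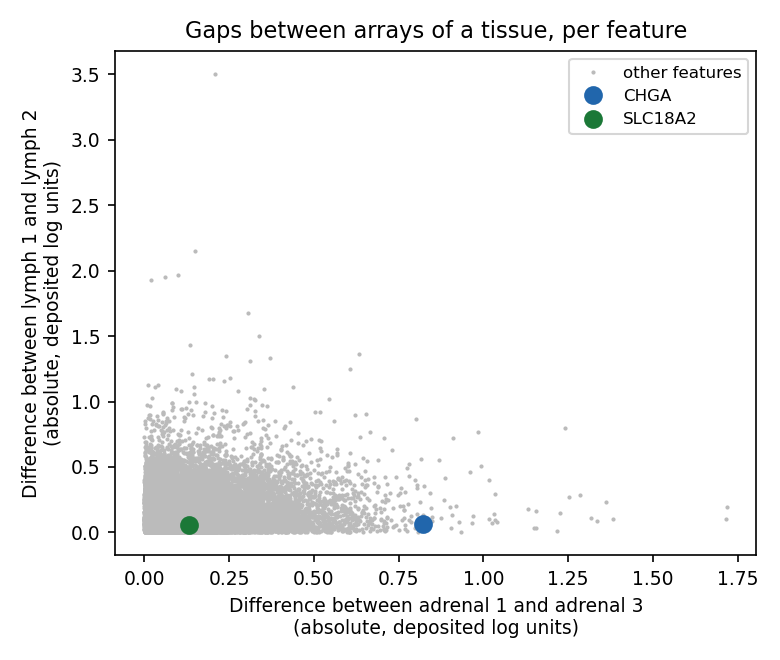
Absolute difference between adrenal 1 and adrenal 3 (x axis) against that between lymph 1 and lymph 2 (y axis), in deposited log units, 1 grey point per feature with values on these 4 arrays. CHGA lies at 0.820 and 0.0604 and SLC18A2 at 0.133 and 0.0535.

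SLC18A2, the vesicular monoamine transporter gene, had small values with little spread over the 5 arrays. Adrenal 1 gave 0.245 and adrenal 3 gave 0.112, lymph 1 gave 0.257 and lymph 2 gave 0.203, and the shared array gave 0.111. All 5 were above 0, none was beyond 0.5 log units, and the adrenal and lymph values overlapped. The adrenal mean was 0.179 ± 0.0938 and the lymph mean 0.230 ± 0.0379 (SD, n = 2 each). The difference, lymph minus adrenal, was 0.0513, smaller than the adrenal SD, and without adrenal 3 it was -0.0150.

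The values of SLC18A2 were modest on each array. From 9.41% of features, on adrenal 1, to 48.7%, on adrenal 3, lay farther from 0. Above 0 on all 5 arrays were 6.35% of the 18936 features with 5 values. At or above 0.111, the lowest value of SLC18A2, on every array were 46 features, or 0.243%. SLC18A2 was among the 46 by the choice of that threshold, so nothing is read from this share. The mean of SLC18A2 was 0.186 ± 0.0705 (SD, n = 5), above that of 97.6% of features, and its SD was above that of 14.4%. Read as log2, its values would be ratios of 1.08-fold to 1.19-fold.

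The 3 genes thus had different patterns over the arrays. PNMT and CHGA each had 1 value beyond 0.5 log units, on different adrenal arrays, and SLC18A2 had none. A value beyond that distance on exactly 1 of 5 arrays was found for 3.64% of features and on at least 2 for 0.137%. On adrenal 1, where PNMT stood at 1.50, CHGA was at -0.0130, and on adrenal 3, where CHGA stood at -0.833, SLC18A2 was at 0.112. In order from low to high, the means were those of CHGA and SLC18A2, each over 5 arrays, and PNMT, over 4. PNMT had no value on adrenal 3, without which the mean was -0.0801 for CHGA and 0.204 for SLC18A2. Without adrenal 1, PNMT at -0.131 fell below SLC18A2 at 0.171. The mean of PNMT, with its SD of 0.820, did not differ from either of the others by more than its spread.

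Fitted across all features with limma, a linear model test with a moderated spread, 0 of the member features and 0 of all features passed an adjusted p under 0.05. PNMT, for lack of a second adrenal value, entered only the average of the 5 arrays, which needed 4 values, while CHGA and SLC18A2 entered every comparison. Called were 0% of 18941 features for adrenal against 0, for lymph against 0 and for lymph minus adrenal, and 0% of 19162 for the average. An unadjusted p under 0.05 was reached by 1406, 1462, 899 and 1891 features, and with an unmoderated test by 1168, 1226, 926 and 1623. With every feature fitted whatever its empty cells, 1 of 19198 (0.00521%) was called for adrenal against 0, and this was PNMT on its 1 adrenal value. Since the members were chosen for their values on these arrays, no call is read as support for them.

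Each member had a single feature, so no second feature of the same gene could be set beside it. Over the genes with exactly 2 features, the median gap between a gene's features was 0.121 on adrenal 1 and 0.158 on adrenal 3, and 5% of these genes had gaps above 0.403 and 0.502. The value of PNMT on adrenal 1 and that of CHGA on adrenal 3 were farther from 0 than these gaps. The values of SLC18A2 on all 5 arrays were within the corresponding gaps, which ranged from 0.238 on the shared array to 0.534 on lymph 1. A gap between 2 features and the distance of 1 feature from 0 are unlike measures. PNMT and CHGA were also chosen for the values compared here.

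Features of neighbouring number were compared with the members. Among the 10 features on each side of PNMT, values on adrenal 1 ran from -0.784 to 0.215 with a median of -0.00545, and 1 of the 20 was beyond 0.5 log units, below 0 where PNMT was above. On lymph 1, 2 of these 20 were beyond it, the lowest at -1.07. Among the 20 around CHGA, values on adrenal 3 ran from -0.169 to 0.138, and 0 were beyond 0.5 log units. Around SLC18A2 the medians ran from -0.0824 on lymph 1 to 0.0279 on the shared array, with 1 feature beyond 0.5 log units, at -0.644 on lymph 1. Whether feature numbers reflect the place of a spot on the slide is not known here.

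The features most like a member were found by the root mean square difference over the arrays on which the member had a value. Nearest to PNMT, over 4 arrays, were MAGI1, a scaffold protein gene of cell junctions, at a difference of 0.391, KLHL17 at 0.422 and TONSL at 0.430. MAGI1 stood at 0.793 on adrenal 1 and, unlike PNMT, had a value on adrenal 3, 0.214. Within 0.1 of PNMT lay 0 of 12501 features of other named genes, and PNMT was chosen for its value on adrenal 1.

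Nearest to CHGA, over 5 arrays, were FLOT2, which codes for a protein of membrane microdomains, at 0.103, PIGR, the polymeric immunoglobulin receptor gene, at 0.109 and TGOLN2, a trans-Golgi protein gene, at 0.114. All had their lowest value on adrenal 3, at -0.665, -0.725 and -0.595. As they were picked by likeness to CHGA, low values there were part of that choice. Within 0.1 of CHGA lay 0 of 12449 features of other named genes, so this was not particular to PNMT. SLC18A2 had many features like it, with 296 of 12449 within 0.1. The nearest were NEK9, a mitotic kinase gene, at 0.0291, NUDCD2 at 0.0384 and P2RX6, an ATP-gated channel gene, at 0.0391.

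The other chromaffin genes on the array were described in the same way. Of 87 genes listed for the chromaffin cell, 40 were on the array, and 2 of them, PNMT and CHGA, had a value beyond 0.5 log units on at least 1 array, or 5%, against 2.63% of the 8397 named genes. The members were chosen for such values, so this share says nothing of the list. A contrast between PNMT or CHGA and the remaining genes was likewise fixed by that choice. Without the 3 members, 0 of 37 genes had one, the median of the genes' means was 0.0102 against 0.00519 over all named genes, and 24 of 37 means were above 0 (64.9%, against 53.4%). With the features of a gene averaged, limma called 0 genes, listed or not, in any of the 4 comparisons, and 612, 667, 401 and 824 of all named genes had an unadjusted p under 0.05.

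**Figure D5:**
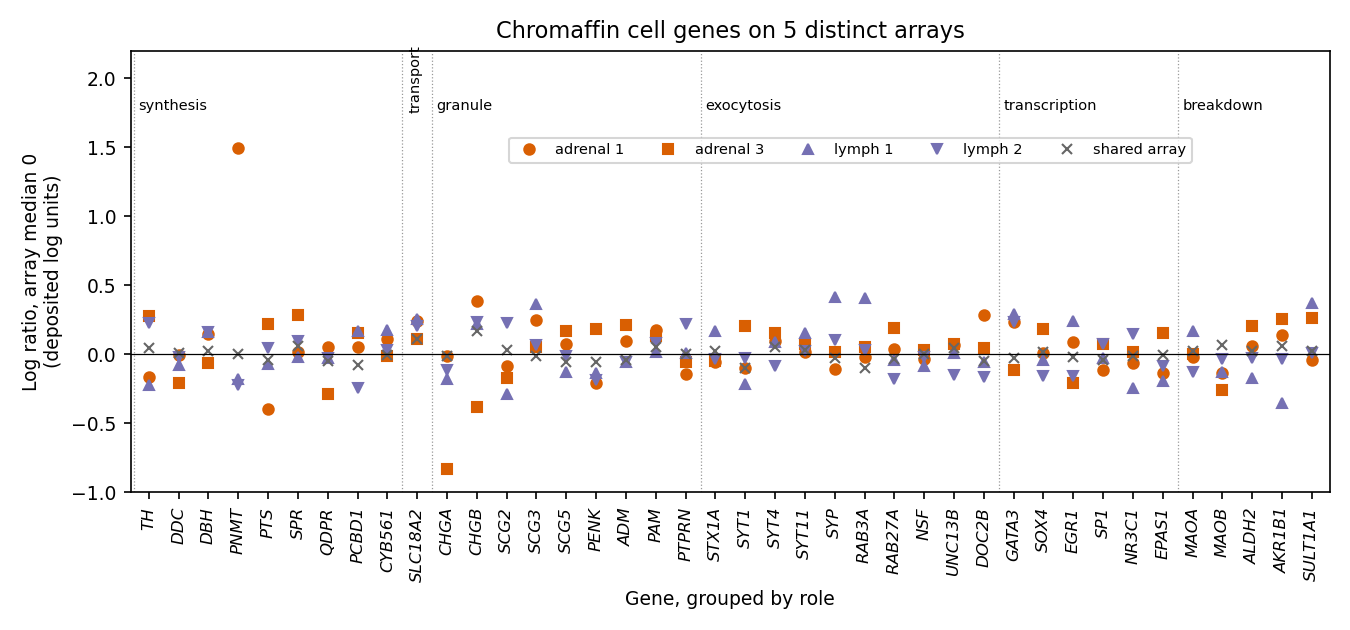
Log ratios (deposited log units, array median 0) of the 40 chromaffin genes on the array, grouped by role, with 1 symbol per array and features of a gene averaged. PNMT on adrenal 1 at 1.50 and CHGA on adrenal 3 at -0.833 lie outside the range of the other 37 genes and SLC18A2, which runs from -0.394 to 0.418.

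In catecholamine synthesis 9 of 10 listed genes were on the array, and 6 had a mean above 0 (66.7%, against 53.4% of all named genes). The medians of the 9 genes' values were 0.0511 on adrenal 1 and 0.0738 on adrenal 3. The rate-limiting enzyme gene TH gave -0.164 and 0.275 with adrenal (arrays 1 and 3), -0.225 and 0.225 with lymph (arrays 1 and 2) and 0.0456 in the shared column, with no order by tissue. DBH, whose product hands noradrenaline to PNMT, stood at 0.146, -0.0657, 0.160, 0.165 and 0.0217 in the same order. TH and DBH were added to the genes that the rule on means had selected. The highest mean beside PNMT was that of SPR, an enzyme of tetrahydrobiopterin synthesis, at 0.0878 ± 0.117 (SD, n = 5), and the lowest were those of QDPR, which regenerates that cofactor, at -0.0665 ± 0.128 and DDC, the decarboxylase, at -0.0598 ± 0.0880. For each of SPR, QDPR and DDC the SD exceeded the mean's distance from 0.

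Of 6 transporters of monoamines, SLC18A2 was the only one with a feature of a single named gene. Of 16 genes for the granule matrix and its peptide processing 9 were on the array. Of these, 6 had a mean above 0 (66.7%, against 53.4% of all named genes). CHGB, the chromogranin B gene, gave 0.390 on adrenal 1 and -0.384 on adrenal 3, with lymph 1 at 0.223, lymph 2 at 0.233 and the shared array at 0.172. Like CHGA it was lowest on adrenal 3, but its other 4 values were above 0 where those of CHGA were below. Among all named genes with 5 values, 24.1% were lowest on adrenal 3. SCG3, a chromogranin-binding granule protein gene, lay at 0.0556 on adrenal 3. PENK, the proenkephalin gene, had a mean of -0.0785 ± 0.157 (SD, n = 5), and SCG3 one of 0.144 ± 0.157.

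Regulated exocytosis was represented by 10 of 20 genes, of which 7 had a mean above 0 (70%, against 53.4% of all named genes). SYP, the synaptophysin gene, had a mean of 0.0816 ± 0.203 (SD, n = 5) and RAB3A, a small GTPase of secretory vesicles, one of 0.0735 ± 0.195. The highest values of both came from lymph 1, at 0.418 and 0.408. The lowest means were those of SYT1, the calcium sensor of vesicle fusion, at -0.0472 ± 0.155 and NSF, which takes apart the fusion complex, at -0.0214 ± 0.0423. Of 14 transcription factor genes 6 were on the array, and 2 of them had a mean above 0 (33.3%). GATA3, a transcription factor of sympathoadrenal and T cells, had a mean of 0.125 ± 0.182 and NR3C1, the glucocorticoid receptor gene, one of -0.0306 ± 0.141. SOX4 lay at 0.00197 ± 0.123 and the hypoxia factor gene EPAS1 at -0.0522 ± 0.135. None of these 8 means was farther from 0 than its SD.

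Of the genes that break catecholamines down, 5 of 6 were on the array, and 4 had a mean above 0 (80%, against 53.4% of all named genes). The monoamine oxidase genes MAOA and MAOB had means of 0.0111 ± 0.106 and -0.0967 ± 0.121 (SD, n = 5), the aldehyde dehydrogenase gene ALDH2 one of 0.0178 ± 0.138, and the sulfotransferase gene SULT1A1 one of 0.126 ± 0.181. Of the 15 listed receptor and channel genes, none had a feature of a single named gene, so the nicotinic receptors that trigger secretion were not followed. Among the 8 chromaffin genes with more than 1 feature, the features of 7 had means on opposite sides of 0. Some of these means were close to 0, as for SCG5 at -0.00309 and 0.0207. The same share was not computed over all genes, so no result is read from this count. For ALDH2 the features stood at 0.498 and -0.0884 on adrenal 3.

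Marker lists of other cell types in these tissues had medians near 0. The median of the genes' means was 0.00799 for 8 of 16 genes of the steroid-producing cortex, -0.0171 for 10 of 11 T cell genes, 0.0296 for 6 of 9 B cell genes, 0.00101 for 3 of 6 Schwann and sustentacular cell genes and -0.0190 for 4 of 7 blood and endothelial genes. CD8A, a T cell co-receptor gene at 0.584 on adrenal 3, was the 1 gene of these 5 lists beyond 0.5 log units. For 6 chromaffin markers other than the members it was 0.0465. On adrenal 1, where PNMT was high, the medians were 0.0314 for cortex, 0.0520 for these 6 markers and 0.0148 for all 37 chromaffin genes other than the members. On adrenal 3, where CHGA was low, they were -0.0872, -0.118 and 0.0741, against 0.00313 over all named genes. Of the 37 genes, which include the 6 markers, 26 were above 0, a share not computed over all genes. The medians of the cortex and chromaffin markers thus lay below 0 and that of the wider list above it. T cell, B cell and Schwann cell markers had medians of 0.0301, 0.0821 and 0.0283 on adrenal 3, and blood and endothelial genes one of -0.0299. A part of cell composition in the values of PNMT and CHGA was not tested.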

How the data were processed

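The authors deposited a log ratio of the channels, as judged from the values, for each feature on each array. The scanner, background correction, normalisation and log base used by the authors are not stated in the sources used here. Genes were named through the platform annotation at GEO. The gene numbers of 12497 features were found in the RefSeq table of assembly ARS-UCD2.0, with 0 symbols changed. Arrays were centred on their median and identical columns were counted once. limma 3.58.1 (R 4.3.3, lmFit and eBayes, two-sided, Benjamini-Hochberg) was fitted to features with at least 2 values per tissue, or 4 for the average, after being tested on simulated data. Descriptions used pandas 2.3.3 and numpy 2.4.6 under Python 3.11.15, and plots matplotlib 3.10.9. The members and gene lists were chosen with earlier results of these data known. Named from each list were the 2 highest and 2 lowest means and any gene beyond 0.5 log units. For each member, the 3 most similar named features and its neighbours in rank were named. TH, DBH, CD8A, UNC45A, TIMP2, SNX5 and the comparison of neighbouring feature numbers were chosen after values were seen. Tried as alternatives were different centring or scaling, different treatment of identical columns and of empty cells, further spread estimates, a threshold of 0.01, gene averages, the replicate block and each array left out. The number of arrays limits the precision.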

Additional observations from a re-analysis of the deposited data

Results flagged for a closer look

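The distance of 1 array from the others was examined over the 5 distinct arrays (4 for PNMT), which mix tissues and so are not a group of the labels. Of 21 chromaffin genes named by the rule on means or as members, 3 (14.3%) had such a gap. So had 7.39% of all 18936 features with 5 values, and chance alone gives about 1 in 20. PNMT and CHGA were chosen for the values concerned, so their presence here was fixed by that choice and the shares say nothing of them. PNMT on adrenal 1 stood at 1.50, with its other 3 values from -0.220 to 0.00422. CHGA on adrenal 3 stood at -0.833, with the other 4 from -0.177 to -0.0130. CHGB, also on adrenal 3, stood at -0.384, with the other 4 from 0.172 to 0.390.

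For 3 of these 21 genes all adrenal values lay on 1 side of 0 and all lymph values on the other. This held for 9 of the 40 chromaffin genes on the array (22.5%), features of a gene averaged, and for 11.2% of the 18941 features with values on the 4 tissue arrays. The 40 genes include PNMT, which was chosen for its value and counts on 1 adrenal value. Gene averages and single features are unlike units, so no result is read from these shares. In the limma fits of lymph minus adrenal, on features and on gene averages, SOX4 and ALDH2 were not called, and PNMT did not enter for lack of a second adrenal value. Lymph minus adrenal was -1.70 for PNMT, with 1 adrenal value, -0.194 for SOX4 and -0.235 for ALDH2. The features of ALDH2 disagreed on the adrenal arrays, at 0.326 and 0.498 for one and -0.202 and -0.0884 for the other.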

How the results depend on the processing

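The members' values were recomputed with other processing, and 53 of 66 values moved by less than the SD between arrays. For PNMT in adrenal, with 1 value, the lymph SD was used. For lymph minus adrenal it was the square root of the summed squared SDs of both tissues. The SDs of the PNMT mean (0.820) and of CHGA in adrenal (0.580) include a value far from 0, so moves beyond them were unlikely. Averaging the features of a gene is not counted, since each member has 1 feature. Counted among the 53, though they could not move, are the values of 1 tissue when the shared array was added to the other. Other centring shifted each array only by a small constant, so moves beyond the SD were unlikely there too. Scaling gave PNMT 1.62 in adrenal and -1.79 for lymph minus adrenal. With all 6 columns PNMT stood at 0.751 in adrenal, -0.131 in lymph and -0.882 for the difference, CHGA at -0.102 in lymph and SLC18A2 at 0.190 in lymph. With the shared array in adrenal PNMT stood at 0.751 and its difference at -0.950. With it in lymph they were -0.131 for lymph and -1.63 for the difference, with CHGA again at -0.102 and SLC18A2 at 0.190. Apart from scaling, these alternatives add an array of unknown tissue to a mean of 1 or 2.

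Leaving out 1 array gave PNMT -0.220 to -0.176 in lymph, -1.72 to -1.67 for the difference and -0.131 to 0.442 in the mean of all arrays, and without adrenal 1 no adrenal value was left. CHGA ranged from -0.833 to -0.0130 in adrenal, -0.177 to -0.116 in lymph, -0.134 to 0.687 for the difference and -0.285 to -0.0801 in the mean. SLC18A2 ranged from 0.112 to 0.245, 0.203 to 0.257, -0.0150 to 0.118 and 0.168 to 0.204.

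The limma count of 0 became 1 for adrenal against 0 with no filter on empty cells, where PNMT passed on 1 value (limma adjusted p = 0.0379; the smallest adjusted p of any feature ranged from 0.00164 to 0.882 over 16 alternatives). With each array left out in turn, calls for adrenal against 0 ranged from 0 to 17, those for lymph against 0 from 0 to 5, those for lymph minus adrenal from 0 to 8 and those for the average from 0 to 1. Without adrenal 3, PNMT was among 3 calls in adrenal and among 3 in the difference, and a lone array is then assumed to vary like those of the other tissue. CHGA and SLC18A2 passed in none of the alternatives run. With a trended and robust spread, unadjusted p under 0.05 was reached by 164, 189, 0 and 0 features. Among the distinct arrays the tissues share only number 1, so pairing could not be judged; a replicate block fitted to all 6 columns called 0 features for lymph minus adrenal, as without it, and 495 against 365 had an unadjusted p under 0.05. No signal over background was analysed here, and what limits it sets is unknown.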
